A study of Homo sapiens with 23 samples.

Results

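Propionylated chromatin of SW480 cells held 630 broad domains, stretches in which a single listed peak of H3K18pr or H4K12pr ran for 4 kb or more. H3K18pr and H4K12pr are propionylated (pr) lysine 18 of histone H3 and lysine 12 of histone H4. A domain was kept where a peak of at least 4000 bp in one replicate overlapped such a peak of the other replicate of the same mark, and the kept peaks of both marks were then merged. These 630 domains stood beside 64292 propionyl regions of any width that both replicates of a mark held, of which 62705 touched no domain and held no propionyl peak of 4 kb or more in any list. These are called narrower regions here, although merging over replicates and marks brought 1061 of them (1.69%) to 4 kb or more. The domains spanned 4.79 Mb, or 0.155% of the genome. Their members were chosen by peak width in the 4 propionyl lists, so width and propionyl coverage are given as a description only.

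SW480 is an established line of human colorectal adenocarcinoma. The propionyl antibodies were used after 10 mM sodium propionate (NaPr), the butyryl (bu) antibodies after 1 mM sodium butyrate (NaBu), and the acetyl (ac) antibodies after NaPr, after NaBu and in untreated cells. Each of the 10 mark and condition groups had 2 replicates, and each condition had 1 input library of chromatin without immunoprecipitation, which makes 23 peak lists. The labels give no genetic change in any group. The labels do not say whether replicates were separate cultures, so a p-value measures only the spread between these libraries. Each condition gave 1 input, and propionyl lists exist only for NaPr. Start sites of 17 of 27 intestinal epithelial genes held an H3K18ac peak in both untreated replicates, against 6 of 18 markers of other cell types and 62.2% of all protein-coding genes. CDX2, EPCAM and VIL1 were among the 17, and PTPRC, PECAM1 and ALB held no such peak.

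Acetyl, propionyl and butyryl groups are attached to histone lysines from the matching acyl-CoA by largely shared acyltransferases, and they are removed by deacylases. Sodium butyrate is also a known inhibitor of histone deacetylases. H3K18 and H4K12 acylation marks active promoters and enhancers, and most such sites are short. Long unbroken stretches of acetylated chromatin are known from clustered enhancers and from the bodies of highly transcribed genes that define a cell type, among them keratin, adhesion and AP-1 genes in epithelial cancers.

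Sequence at the strongest propionyl summit of 5 of the domains named by the selection rule is printed first, because these windows are where the propionyl signal of a domain peaked. Each window is 300 bp of hg38, free of annotated exons, and capitals mark matches to TGANTCA (AP-1), GGAATG (TEAD), CTTTGAT (TCF/LEF) or GGGNGNGGC (KLF/SP) on either strand. The first lies in an intron of ACTN4 and holds no match. The 5 are not typical, since the other exon-free windows extracted for named domains held no match. Over the summit windows of all 630 domains, 6.83% held the AP-1 letters, 13.8% TEAD, 2.06% TCF/LEF and 11.4% KLF/SP.
ACTN4 domain, chr19:38693995-38694294, plus strand: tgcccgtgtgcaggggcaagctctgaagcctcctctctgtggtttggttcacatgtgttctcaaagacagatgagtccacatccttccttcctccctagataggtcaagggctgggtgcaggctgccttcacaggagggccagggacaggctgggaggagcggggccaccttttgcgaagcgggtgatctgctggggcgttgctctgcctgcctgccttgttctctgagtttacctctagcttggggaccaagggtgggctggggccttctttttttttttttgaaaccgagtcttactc
Domain 71557 bp from the CFAP144 start, chr1:43068711-43069010, plus strand: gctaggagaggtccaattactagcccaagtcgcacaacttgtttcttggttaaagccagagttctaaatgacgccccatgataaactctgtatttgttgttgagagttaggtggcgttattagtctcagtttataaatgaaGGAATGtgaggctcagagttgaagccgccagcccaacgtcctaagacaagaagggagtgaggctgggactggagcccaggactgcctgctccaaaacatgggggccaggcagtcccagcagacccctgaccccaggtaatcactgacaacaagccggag
FOSL1 domain, chr11:65899761-65900060, plus strand: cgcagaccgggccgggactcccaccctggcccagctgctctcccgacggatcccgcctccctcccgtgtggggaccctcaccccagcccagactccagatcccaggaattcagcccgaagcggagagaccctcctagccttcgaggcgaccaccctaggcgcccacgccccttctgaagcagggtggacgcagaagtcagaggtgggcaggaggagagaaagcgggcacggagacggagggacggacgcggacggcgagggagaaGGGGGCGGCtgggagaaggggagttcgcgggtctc
Domain 68663 bp from the ANO1 start, chr11:69915036-69915335, plus strand: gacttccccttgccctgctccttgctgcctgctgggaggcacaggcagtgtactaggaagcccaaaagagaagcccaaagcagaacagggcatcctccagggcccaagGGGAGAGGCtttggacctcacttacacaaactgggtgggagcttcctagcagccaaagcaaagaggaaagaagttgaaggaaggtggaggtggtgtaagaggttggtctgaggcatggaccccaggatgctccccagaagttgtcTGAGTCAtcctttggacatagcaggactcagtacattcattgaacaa
Domain 42783 bp from the SMURF2 start, chr17:64713154-64713453, plus strand: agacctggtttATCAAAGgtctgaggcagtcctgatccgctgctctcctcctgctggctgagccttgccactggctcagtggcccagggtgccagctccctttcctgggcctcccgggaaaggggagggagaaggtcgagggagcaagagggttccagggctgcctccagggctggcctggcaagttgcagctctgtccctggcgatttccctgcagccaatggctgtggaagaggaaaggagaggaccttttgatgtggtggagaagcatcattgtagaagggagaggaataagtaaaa

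The domains also held 12 of 1562 RefSeq miRNA hairpins (0.768%). Mature sequences of 5 miRNAs with well-known roles in epithelial cancer are given, chosen after the overlaps were seen, with the seed (bases 2 to 8) in capitals. MIR21 lay in a 7588 bp domain in the body of VMP1 on chromosome 17. MIR23A, MIR27A and MIR24-2 shared a domain on chromosome 19, and MIR10A lay in a domain of the HOXB region.
hsa-miR-21-5p: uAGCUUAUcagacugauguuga
hsa-miR-23a-3p: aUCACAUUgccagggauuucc
hsa-miR-27a-3p: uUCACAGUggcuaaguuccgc
hsa-miR-24-3p: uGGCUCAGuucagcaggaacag
hsa-miR-10a-5p: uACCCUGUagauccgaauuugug
No 2 of these 5 seeds were alike.

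Before the acetyl values, the list labelled H3K18ac NaPr replicate 1 stood apart. Over the 630 domains, the share of each domain under its peaks correlated with that of H3K18ac NaPr replicate 2 at a Pearson r of 0.170. Its correlation with H4K12ac untreated was 0.890 for replicate 1 and 0.879 for replicate 2. In the other 5 acetyl groups the replicates correlated between 0.849 and 0.929. These points share the libraries, their depth and the domain widths, so the r values are a description. The label was kept. The differences of the main tests, and the counts and rankings that use this list, are also given without it. Group means, p-values and the alternative settings, such as log2 values, keep it.

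**Figure D1:**
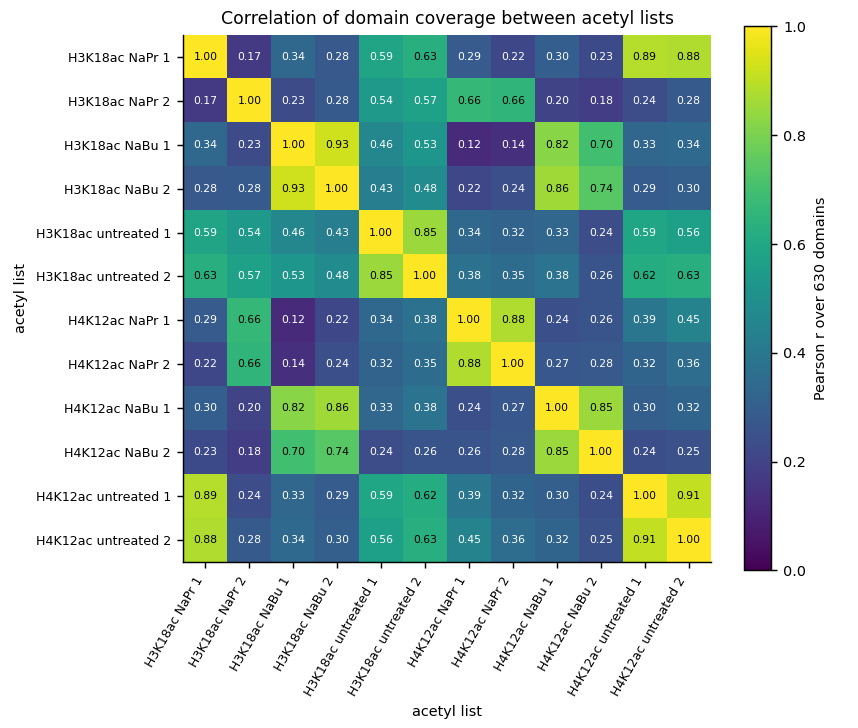
Each cell gives the Pearson r between a pair of acetyl lists (rows and columns, by group and replicate) of the percentage of each of the 630 domains under their peaks; the colour scale runs from 0 to 1. The list labelled H3K18ac NaPr 1 is at 0.89 and 0.88 with the H4K12ac untreated lists and at 0.17 with H3K18ac NaPr 2.

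Domain width ran from 4114 to 30825 bp with a median of 6568 bp. H3K18pr alone passed the rule at 246 domains, H4K12pr alone at 147 and both marks at 237. These classes tell which mark passed the width rule, not which mark was present. H4K12pr peaks covered 84.3% and 79.9% of base pairs in H3K18pr-only domains in replicates 1 and 2. H3K18pr peaks covered 74.7% and 60.9% in H4K12pr-only domains. Domains held at both sites were widest, with a median of 8431 bp, against 5526 bp for H3K18pr alone and 5749 bp for H4K12pr alone. The narrowest peaks that entered measured 4000 bp (H4K12pr replicate 2, fold enrichment 15.3) and 4001 bp (H3K18pr replicate 2, fold enrichment 26.0). Just outside lay a 3997 bp H3K18pr peak over ZFP36, which encodes an mRNA decay factor (fold enrichment 14.3), and a 3993 bp H4K12pr peak over the transporter gene SLCO4A1 (fold enrichment 5.03). The members and non-members at the threshold therefore differed by a few base pairs. The lists held 1202 and 551 peaks of 4 kb or more for H3K18pr replicates 1 and 2, and 851 and 573 for H4K12pr. Replicate 1 had more wide peaks at both sites and, with 4.93 and 8.38 fragments per kb, was deeper than replicate 2 with 3.38 and 5.66. The acetyl lists of NaPr and untreated cells were deeper, at 11.2 to 38.6 fragments per kb. They held 20 to 1269 peaks of 4 kb or more, and the 1269 were in the shallowest, untreated H3K18ac replicate 1. The part of depth was not tested.

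The acetyl lists covered far more of the domains than of the narrower regions. H3K18ac peaks lay over 72.3% and 67.6% of domain base pairs in NaPr replicates 1 and 2, 51.4% and 49.3% in NaBu, and 85.2% and 68.6% in untreated cells. H4K12ac peaks lay over 45.6% and 37.8% in NaPr, 25.2% and 13% in NaBu, and 69.9% and 66.5% in untreated cells. The same lists covered 40.9% and 24.8% (H3K18ac NaPr) or 13.2% and 9.62% (H4K12ac NaPr) of the narrower regions. Every one of the 12 acetyl libraries covered the domains more fully. The mean difference was 30.3 percentage points (exact sign-flip test over 12 libraries, two-sided p = 0.000488, the smallest it can give, 0.00244 after Benjamini-Hochberg adjustment over 5 comparisons). It was 30.2 points without the list labelled H3K18ac NaPr replicate 1 and 22.7 points against propionyl regions of 2 to 4 kb. Against narrower regions whose merged width stayed under 4 kb, an alternative chosen after seeing the data, it was 30.9 points. Among the 4 NaBu acetyl lists, whose names share a tag, it was 21.9 points (exact sign-flip test, p = 0.13). Among the other 8 lists, whose names share another, it was 34.5 points (exact sign-flip test, p = 0.00781). In each of the 12 lists, coverage also rose with width among the narrower regions. For untreated H4K12ac replicate 1 it was 22.8% in regions under 500 bp and 46.7% in those of 2 to 4 kb. Domains were chosen by width, so these tests cannot separate being a domain from region width. The part of width was not tested.

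**Figure D2:**
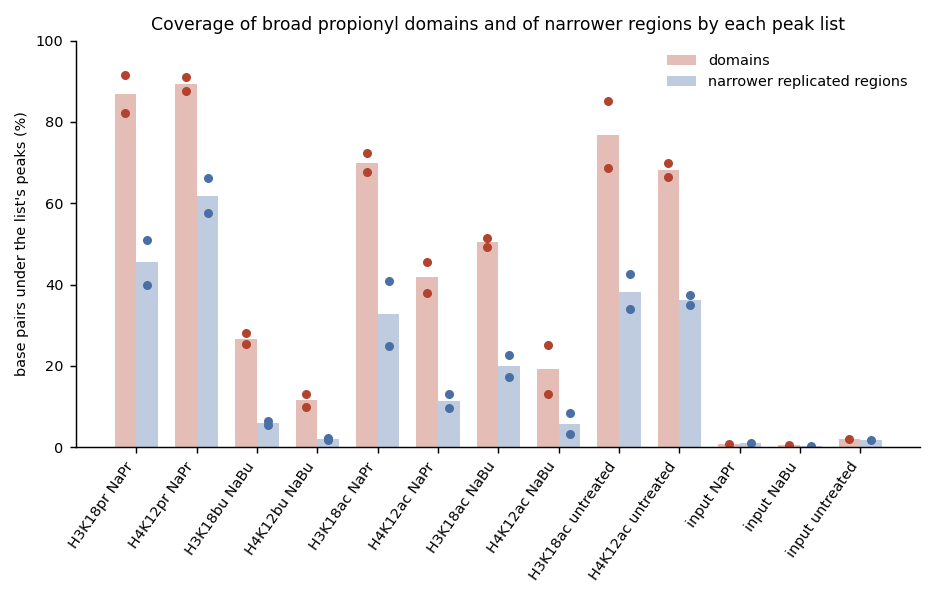
Percentage of base pairs under the peaks of each list, for the 630 domains (red) and the 62705 narrower replicated propionyl regions (blue); points are libraries, bars are group means, and each input has 1 library. Domains are covered more than narrower regions in every immunoprecipitated group, while the inputs stay at 1.98% or lower in domains.

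Each of the 630 domains had some base under a NaPr acetyl peak. With all 4 NaPr acetyl lists, 0 domains were free of any covered base, against 21% of all replicated propionyl regions, and without the list labelled H3K18ac NaPr replicate 1 the count was also 0, against 36.4%. At least 50% of the domain was under H3K18ac peaks of both NaPr replicates at 426 domains (67.6%, against 12.8% of all regions), and in replicate 2 alone at 500 (18.7% of all regions). For H4K12ac in both NaPr replicates the count was 142 domains (22.5%, against 1.37%). In untreated cells the corresponding counts were 525 for H3K18ac (83.3%, against 27.2%) and 489 for H4K12ac (77.6%, against 23.5%). All regions include many that are much shorter than a domain.

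A total of 9 domains were covered by 50% or more in all 12 acetyl libraries, against 0.0855% of all regions, and the count was 9 as well over the 11 libraries without H3K18ac NaPr replicate 1 (0.0855%). Below 50% in all 12 were 7 domains (40.3% of all regions), and in the 11 libraries 9 (43.5%). The domains with the lowest NaPr acetyl coverage lay in PCSK5, a proprotein convertase gene (mean of the 4 lists 13.3%), in an intergenic stretch of chromosome 6 (13.6%), and in NOL4L (16.0%), UHRF1, a reader of DNA methylation at replication forks (16.6%), and the kinase gene MAP4K4 (18.1%). These 5 were singled out after their values were seen, and the order rests in part on the list that stood apart. By the mean of the other 3 lists, the lowest were NOL4L (1.44%), DEAF1 (1.63%), HDAC7 (2.59%), MEGF6 (3.06%) and UHRF1 (7.78%), while PCSK5 stood at 9.88%, MAP4K4 at 11.7% and the chromosome 6 stretch at 16.0%.

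The acetyl lists of NaPr covered less of the domains than those of untreated cells, mostly at H4K12. For H4K12ac the mean was 41.7% ± 5.53 (SD, n = 2) in NaPr and 68.2% ± 2.40 in untreated cells, and the libraries did not overlap. For H3K18ac the means were 69.9% ± 3.29 and 76.9% ± 11.7, and the libraries overlapped. The difference averaged over the sites was -16.7 points (exact stratified permutation test, p = 0.111, adjusted 0.111, smallest possible 0.0556), or -17.9 points without the list labelled H3K18ac NaPr replicate 1. H4K12ac coverage was lower in both NaPr replicates than in both untreated ones at 522 domains (82.9%), where 44.1% of all replicated propionyl regions did the same, and higher at 21 (2.22% of all regions). H3K18ac coverage was lower at 133 domains (21.1%, against 15.3% of all regions) and higher at 11 (against 3.45%). Without the list labelled H3K18ac NaPr replicate 1 these became 332 lower (34.5% of all regions) and 78 higher (10.9%). The lists themselves differed in size, since H4K12ac covered 1.45% and 1.24% of the genome in NaPr and 2.78% and 2.48% in untreated cells. Relative to genome coverage the averaged difference was 0.11 on the log2 scale, in the other direction.

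NaBu lists covered less still. H3K18ac had a mean of 50.4% ± 1.5 in NaBu against 76.9% ± 11.7 in untreated cells, and H4K12ac 19.1% ± 8.61 against 68.2% ± 2.40. The libraries were apart at both sites, and the averaged difference was -37.8 points (exact stratified permutation test, p = 0.0556, the smallest it can give, adjusted 0.0926). Coverage was lower in NaBu at 458 domains for H3K18ac (34% of all regions) and at 599 for H4K12ac (49.4% of all regions), and higher at 28 (3.91%) and 2 (0.625%). By a tag in the names of the lists, all NaBu libraries formed a set of their own. The labels do not say what the tag stands for, and treatment and tag cannot be told apart. The same holds for the propionyl lists against the acetyl lists of NaPr. Relative to genome coverage the difference was 0.66 on the log2 scale, in the other direction.

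H3K18ac covered more of the domains than H4K12ac. The means were 69.9% against 41.7% in NaPr, 50.4% against 19.1% in NaBu and 76.9% against 68.2% in untreated cells. The libraries were apart after NaPr and after NaBu and overlapped in untreated cells. The difference averaged over conditions was 22.7 points (exact stratified permutation test, p = 0.0185, adjusted 0.0463) and 22.0 points without the list labelled H3K18ac NaPr replicate 1. H3K18ac exceeded H4K12ac in both replicates at 498 domains in NaPr (30.1% of all regions), 578 in NaBu (26.7%) and 299 in untreated cells (20.5%). The reverse held at 0, 0 and 42 domains, against 1.86%, 0.0933% and 16% of all regions. With replicate 2 alone for H3K18ac NaPr, H3K18ac was higher at 579 domains (39% of all regions) and lower at 18 (6.43%). Relative to genome coverage the averaged difference was 0.064 on the log2 scale (exact p = 0.861).

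Butyryl lists covered less of the domains, by their means, than acetyl lists of the same site in NaBu. H3K18bu peaks lay over 28.0% and 25.4% of domain base pairs and H4K12bu peaks over 13.2% and 9.86%. H3K18ac of the same NaBu cells covered 51.4% and 49.3%, apart from H3K18bu, while H4K12ac at 25.2% and 13% overlapped H4K12bu. The difference averaged over the sites was -15.7 points (exact stratified permutation test, p = 0.111, adjusted 0.111). H3K18bu was lower than H3K18ac in both replicates at 517 domains (26.5% of all regions), and H4K12bu lower than H4K12ac at 199 (5.85%). The butyryl mark was higher at 9 domains for H3K18 (0.468% of all regions) and at 5 for H4K12 (0.188%). The butyryl lists were short, with 8158 to 22497 peaks, and relative to genome coverage the difference was 1.03 on the log2 scale in favour of butyrylation.

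Single wide peaks in both replicates of an acetyl group were present at 193 domains or fewer. A peak of 4 kb or more in both was present at 193 domains for untreated H3K18ac (0.499% of all regions), 75 for NaPr H3K18ac (0.151%), 69 for NaBu H3K18ac (0.219%) and 54 for untreated H4K12ac (0.106%). It was present at 16 for NaPr H4K12ac (0.028%) and at 1 for NaBu H4K12ac (0.00156%). Single lists held more, with 456 and 194 domains in untreated H3K18ac replicates 1 and 2. NaPr H3K18ac held 146 in the list labelled replicate 1 and 210 in replicate 2 (0.49% of all regions for the latter). The share over all regions was not computed for the other single lists. For H3K18bu it was present at 3 (0.00467%) and for H4K12bu at 0 (0%). The shortest listed peak measured 340 or 350 bp in the propionyl lists and 165 to 265 bp in the acetyl lists, and the median number of peaks per domain ran from 1 to 4 over the 12 acetyl lists. When peaks of a list were joined over gaps of up to 350 bp, an alternative chosen after seeing the data, the domains with a joined stretch of 4 kb or more numbered 522 and 358 for untreated H3K18ac and 372 and 317 for untreated H4K12ac. They numbered 394 and 345 for NaPr H3K18ac and 124 and 71 for NaPr H4K12ac. The share over all regions was not computed for joined stretches, so these counts cannot be set against a background. Joined input peaks reached 4 kb at 0 domains.

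Input peaks touched many domains and covered little of them. An input peak of any condition lay in 364 domains (57.8%), against 16.5% of all regions, which are shorter. By condition these were 124 domains for NaPr (5.84% of all regions), 106 for NaBu (2.52%) and 241 for untreated cells (9.64%). The share of domain base pairs under input peaks was 0.850% for NaPr, 0.490% for NaBu and 1.98% for untreated cells, and in the narrower regions it was 0.991%, 0.285% and 1.83%. Relative to genome coverage, untreated input was enriched in both, with log2 values of 2.93 in domains and 2.82 in narrower regions. The log2 values were 0.990 and 0.208 for NaBu input and -0.0228 and 0.199 for NaPr input. The 5 widest domains under a NaPr input peak lay over ACTN4 (1.27% under the input), LINC02964 (1.14%), the chromosome 1 stretch near CFAP144 (1.15%), the autophagy receptor gene SQSTM1 (3%) and the ephrin receptor gene EPHA2 (2.66%). Averaged over the inputs, domains minus narrower regions was 0.0711 points (exact sign-flip test over 3 inputs, p = 0.5, smallest possible 0.25). Over the 266 domains with no base under an input peak, acetyl coverage exceeded that of the narrower regions by 28.2 points. The narrower regions were not filtered for input peaks here, and the part of input background was not tested.

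ACTN4, which encodes the actin crosslinker alpha-actinin 4, was the gene with most domain base pairs, 79968 bp. It lies at chr19:38647649-38731589 on the plus strand, and 5 domains took 93.0% of the gene with 1 kb on both sides. The first of them, 25671 bp from the start site inward, was 98.9% and 87.0% under H3K18pr peaks and 96.2% and 95.5% under H4K12pr. H3K18ac covered it at 96.7% and 91.1% in NaPr and H4K12ac at 67.2% and 49.1%. The downstream end looked different. The 11771 bp domain at chr19:38715836-38727606 was 96.8% and 98.2% under H4K12pr and 41.6% and 29.0% under H3K18pr. There the NaPr lists of H4K12ac covered 13.2% and 10.1% against 86.1% and 78.4% in untreated cells, and H3K18ac NaPr covered 90.6% in the list labelled replicate 1 and 15.7% in replicate 2.

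**Figure D3:**
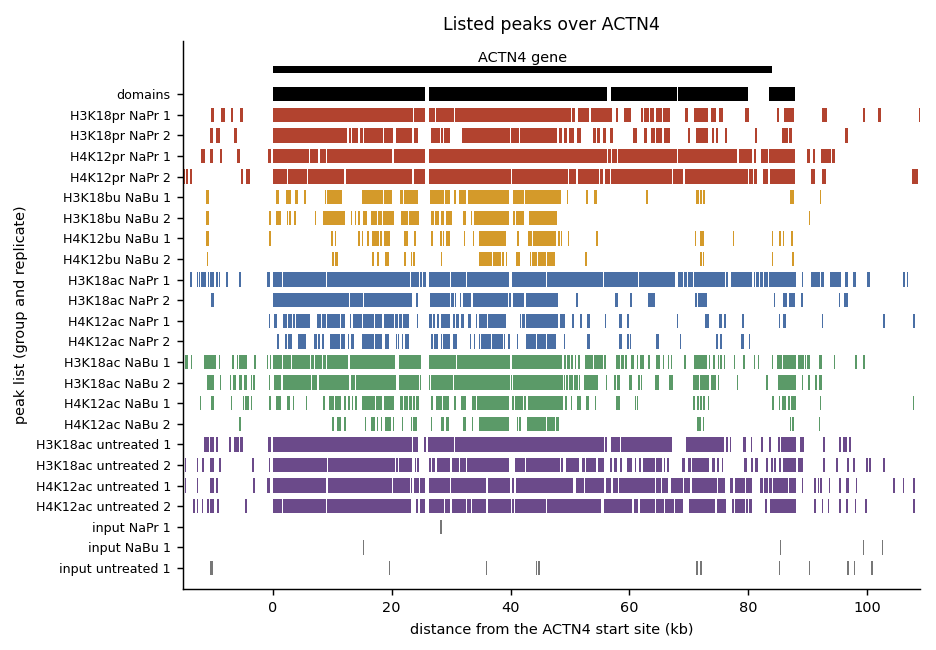
Peaks of each list (1 row per library, coloured by mark and condition) over ACTN4, drawn by distance from its start site in kb; black bars are the gene and the 5 domains. H4K12pr and untreated H4K12ac peaks run on to the end of the gene, whereas H4K12ac NaPr peaks thin out in the downstream part.

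The widest domain of all, 30825 bp at chr20:31693752-31724576, lay over the start of BCL2L1, which encodes the anti-apoptotic protein BCL-XL. H3K18ac covered it at 75.7% and 87.5% and H4K12ac at 83.5% and 74.1% in NaPr, and H3K18bu at 67.5% and 63.8% in NaBu. The third widest covered the glucose transporter gene SLC2A1, with 95.7% and 91.7% under NaPr H3K18ac and only 16.1% and 25.3% under H3K18bu. ITGA3, an integrin subunit gene, had a domain of 23940 bp in which H3K18bu covered 2.26% and 0.869%.

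Other members of the 10 widest lay over the noncoding RNA gene MALAT1 (23071 bp), the tetraspanin gene CD9 (20796 bp), LINC02964, a noncoding stretch of chromosome 7 (25053 bp) and an intergenic stretch of chromosome 1 (21048 bp). CD9 had the highest summit of the 10, with a fold enrichment of 151 in H3K18pr replicate 1. NaPr H4K12ac covered 86.9% and 83.1% of the MALAT1 domain and 27.5% and 24.4% of the CD9 domain. The latter values were the lowest of the 10 widest.

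NaPr acetyl coverage was highest in the domains of MIR21 (mean of the 4 lists 95.1%), NEAT1, FOSL1, MALAT1 and a stretch near SMURF2. The MIR21 domain lay in the body of the protein-coding gene VMP1. Without the list labelled H3K18ac NaPr replicate 1, the MIR21 domain stood at 95.5% and stayed highest, and ANKRD1 (93.8%) took the place of FOSL1 (86.8%) among the highest 5. In the MIR21 domain, chr17:59836139-59843726, H4K12ac covered 93.6% and 93.0% in NaPr and 93.5% and 93.9% in untreated cells. H3K18bu covered 61.8% and 75.6% of it and H4K12bu 42.9% and 55.5%. The domain stood at the high end for both butyryl marks, whose medians over domains were 23.6% and 20.8% for H3K18bu and 8.29% and 5.48% for H4K12bu.

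Domains that passed the width rule at a single site were led by different genes, though the other mark covered much of both classes. The 5 widest at H3K18pr alone lay in SLC2A14, over ZFP36L1, which encodes an mRNA decay factor, in ATXN7L1, over the circadian repressor gene BHLHE40 and in the cytolinker gene PLEC. In the ATXN7L1 domain NaPr H3K18ac covered 14.4% and 36% and untreated H3K18ac 27.7% and 21.9%, while H3K18pr covered 98.1% and 83.2%. BHLHE40 had 84.5% and 88.5% under NaPr H3K18ac. The 5 widest at H4K12pr alone lay in TGM2, which encodes a transglutaminase, in PDGFA, a growth factor gene, in ACTN4, near ANO1 and in AXIN2, a negative regulator and target of Wnt signalling. In the AXIN2 domain H4K12ac covered 18.8% and 17.9% in NaPr and 93.2% and 89.5% in untreated cells. In the PDGFA domain, 0.498 Mb from the chromosome end, the same mark covered 25% and 7.19% in NaPr and 82.1% and 93.9% in untreated cells.

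NaPr acetyl coverage was lower in the H4K12pr-only class than in the H3K18pr-only class in 3 of 4 lists. In domains held by H4K12pr alone, H4K12ac NaPr covered 33.6% and 24.4% and H3K18ac NaPr 75.4% and 48.1%. In domains held by H3K18pr alone, H4K12ac NaPr covered 43.6% and 35.9% and H3K18ac NaPr 63.5% and 70.3%. Domains held at both sites had 52.0% and 44.6% of H4K12ac NaPr and 76.8% and 73.9% of H3K18ac NaPr. Untreated H4K12ac was higher in the H4K12pr class, with 71.7% and 68.5%, than in the H3K18pr class, with 62.0% and 58.9%. The list labelled H3K18ac NaPr replicate 1 went with this untreated order and replicate 2 with the NaPr order.

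Among 20007 protein-coding genes, 394 (1.97%) had a domain over the body or 1 kb on either side, and 107 (0.535%) had their start site in one. Genes with a domain had a median length of 55597 bp, against 27466 bp for all. After ACTN4, the genes with most domain base pairs were BCL2L1 (41103 bp), CUEDC1 (40751 bp), HOXB3 (39101 bp), TGM2 (37000 bp), SEPTIN9 (32084 bp), TTC7A (30272 bp), ATXN7L1 (28414 bp), SLC2A1 (26601 bp) and ANXA2 (26367 bp). TGM2 had 89.8% of its length with flanks under domains, and SEPTIN9, a cytoskeletal septin gene, had 14.5%.

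Of 16 AP-1 family genes, which encode leucine zipper transcription factors of growth and stress responses, 6 had a domain (37.5%). FOSL1, FOS and JUN had their start site in it, and MAFK, ATF3 and MAFF did not. FOSL1, at chr11:65892049-65900573, had 77.0% of its length with flanks under a domain in which NaPr H3K18ac covered 93.5% and 91.0% and NaPr H4K12ac 85.1% and 84.4%. FOS had 81.9% under its domain and JUN 36.4%. Of the 40 cadherin and focal adhesion genes 9 had one (22.5%), led by ACTN4, ITGA3, the actin crosslinker gene FLNA and PLEC. Of 27 intestinal epithelial genes 6 had one (22.2%), among them the keratin genes KRT19 and KRT18, each wholly under a domain, KRT8 and the tight junction gene CLDN7.

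Of 39 HOX genes, which set position along the body axis, 6 had a domain (15.4%), and all were neighbours in the HOXB cluster, from HOXB3 to HOXB8. These 6 share 5 domains that cover 83.2% of 56136 bp. Wnt genes numbered 3 of 39 (AXIN2, BCL9L and ZNRF3) and TGF-beta and SMAD genes 3 of 35 (SMAD3, LTBP2 and TGIF1). KLF6 was the 1 of 27 KLF and SP genes (3.70%) and PPP1R15A the 1 of 37 unfolded protein response genes (2.70%). HDAC7 was the 1 of 18 deacylase genes (5.56%) and CACNA2D4 the 1 of 26 voltage-gated calcium channel genes (3.85%). Chromosome 19 zinc finger genes stood at 4 of 251 (1.59%). No domain lay over any of 26 short-chain acyl-CoA metabolism genes, 15 histone acyltransferase genes, 77 cytosolic ribosomal protein genes, 400 olfactory receptor genes or 18 markers of other cell types. The share over all protein-coding genes was 1.97%, so a count of 0 or 1 in a short list cannot be read as scarcity. Short genes and neighbours that share a domain enter these counts, and no test over the lists was made.

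**Figure D4:**
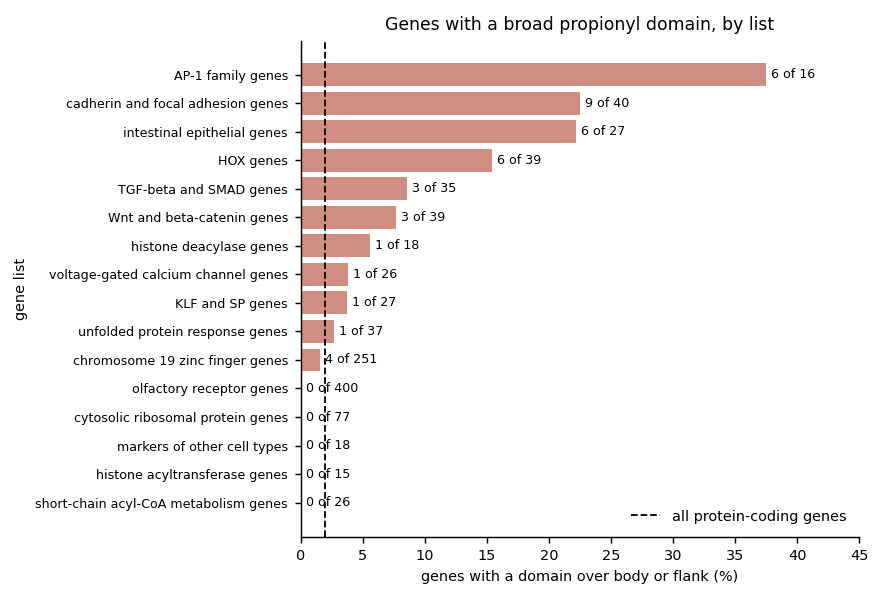
Percentage of genes of each list named in the text (rows) with a domain over the body or 1 kb on either side, with the counts beside the bars; the dashed line is the 1.97% of all protein-coding genes. AP-1 family genes lead with 6 of 16, and 5 lists stand at 0.

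Of the domains, 177 held a start site of a protein-coding or lncRNA gene, 339 lay in a gene body without one and 114 were intergenic. By base pairs, 61.2% of the domains were intronic, 12.1% exonic and 26.7% intergenic, against 62.1%, 14.9% and 23% of the narrower regions. A start site lay in 28.1% of domains and in 10.9% of narrower regions. Per length the order turned: 5.03 start sites per 100 kb in domains, 10.7 in narrower regions and 1.26 in the genome. Within each propionyl list, peaks of 4 kb or more held 5.38 and 6.01 start sites per 100 kb for H3K18pr and 5.43 and 4.67 for H4K12pr, against 10.6, 8.93, 6.58 and 7.38 in the narrower peaks. Wide peaks were lower in 4 of 4 lists, by 3.00 on average (exact sign-flip test over 4 lists, p = 0.13, the smallest it can give, adjusted 0.375 over 3 properties). Peak width both split the lists and was the divisor, so this test cannot separate start-site content from width. No conclusion is drawn from it. Counted per peak, the order was the opposite: in each of the 4 lists a larger share of wide than of narrower peaks held a start site. At the 79 domains with 1 protein-coding start site, a median of 4153 bp lay downstream and 2911 bp upstream, and the downstream side was longer at 54.

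Median GC content was close in domains and narrower regions. It was 50.3% in domains and 50.4% in narrower regions, both above the genome at 40.9%. The mean of wide peaks minus narrower ones was 0.786 points over the 4 lists (exact sign-flip test, p = 0.25, adjusted 0.375), and H3K18pr replicate 1 went the other way from the rest. The classes by site were further apart: the median GC was 48.0% at H3K18pr-only domains and 54.1% at H4K12pr-only domains. The ratio of observed to expected CpG was 0.266 in domains and 0.315 in narrower regions.

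Domains lay near chromosome ends about as often as narrower regions did. Within 5 Mb of an end lay 14.8% of domains, 16.1% of narrower regions and 7.77% of the genome. In the lists, wide minus narrower peaks averaged -0.0350 points (exact sign-flip test, p = 1, adjusted 1). H3K18pr wide peaks, at 13.3% and 11.3%, were below their narrower peaks at 15.4% and 13.4%, and H4K12pr wide peaks, at 18.4% and 16.6%, were above theirs at 16.6% and 14.3%. By class the share was 10.2% at H3K18pr-only and 23.1% at H4K12pr-only domains.

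Chromosome 17 held 80 domains, 0.961 per Mb, followed by chromosome 20 with 41 (0.636 per Mb) and chromosome 19 with 31 (0.529 per Mb). Among chromosomes 1 to 22 and X, the lowest densities were 0.0315 per Mb on chromosome 4 and 0.0385 per Mb on chromosome X, with 6 domains each. Narrower regions followed a like order, with 62.6 per Mb on chromosome 17 and 8.29 on chromosome 4. The share of a chromosome's replicated regions that were domains still ran from 0.337% on chromosome 16 to 1.51% on chromosome 17.

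**Figure D5:**
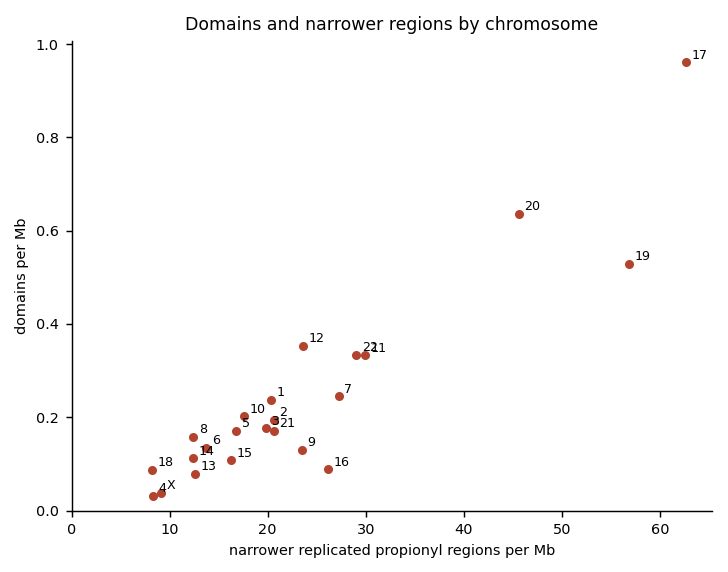
Domains per Mb against narrower replicated propionyl regions per Mb, 1 point per chromosome (1 to 22 and X). Chromosome 17 is highest on both axes, at 0.961 domains and 62.6 narrower regions per Mb, and chromosome 16 has few domains for its narrower regions.

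Domains were often neighbours. Another domain lay within 50 kb of 267 (42.4%), and 38 groups held 3 or more. The densest was ACTN4 with CAPN12, where 5 domains filled 94.3% of 87911 bp. TGM2 and RPRD1B shared 5 domains (83.8% of 60831 bp), and LIF, a cytokine gene, lay among 4 (78.0% of 55514 bp). KRT8 and KRT18, AXIN2 and CUEDC1 each had a group of 5, which filled 43.1%, 36.3% and 43.1% of their spans.

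Motif matches at the summits were close in domains and narrower regions, and over whole domains AP-1 letters were denser. Windows of 300 bp at the strongest summit held TGANTCA in 6.83% of domains and 6.62% of narrower regions, against 7.71% of RefSeq promoters of the same length. Over the full length, domains had 0.447 matches per kb, regions of 2 to 4 kb 0.403, narrower regions 0.339 and the genome 0.330. H3K18pr-only domains had 0.518 per kb and H4K12pr-only domains 0.332, and the former were also lower in GC. For GGAATG the values were 0.681 per kb in domains and 0.571 in narrower regions, for CTTTGAT 0.12 and 0.112, and for GGGNGNGGC 0.457 and 0.445. The genome stood at 0.628, 0.179 and 0.130 for these 3. A match is a description of the letters and not a bound site.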

How the data were processed

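ChIP-seq peak lists of 23 SW480 libraries were used, grouped by the labels. Per the submitters' processing notes, reads were handled with bcl2fastq 2.17.1 and cutadapt 1.8.1 and aligned to hg38 with Bowtie2 2.3.1. Peaks were called by the authors with MACS2 2.1.0 for each immunoprecipitated library against input at p = 0.01. The control used for the input lists themselves is not stated in the sources used here. Each deposited peak carries a fold enrichment, which is a ratio to local background, and −log10 p-values and −log10 q-values given by the authors' caller. Replicates were not pooled. The shortest listed peak was longer in the propionyl lists than in the acetyl lists, and its part in peak width was not tested.

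Domains, coverage (percentage of base pairs under a list's peaks), GC and motifs were computed with Python 3.11.15, numpy 2.4.6 and scipy 1.17.1, on the hg38 reference, GENCODE 44 and RefSeq sequences of GRCh38.p14. A domain call in a comparison means that both replicates of one group lay on the same side of both replicates of the other, and its background is the share over 64292 regions. Tests were exact, over libraries, two-sided, and were checked on simulated libraries. Named domains were the 10 widest, the 5 widest of each site class, the 5 with highest NaPr acetyl coverage and the 5 widest under a NaPr input peak. Named genes were the 10 with most domain base pairs and up to 4 members of each list, and others named beside them were chosen after their values were seen. The domains and gene lists were chosen with earlier results of these data known. A further gene list is not reported here. Depth in fragments per kb was recovered from whole-number pileups, which the NaBu lists do not have, so their depth is unknown. Peak lists carry no read counts, and reads were not analysed here.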

Additional observations from a re-analysis of the deposited data

How the results depend on the processing

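The number of domains depended on the rule. It was 1376 at 3000 bp, 327 at 5000 bp, 1603 when either replicate sufficed, 814 to 1506 with 1 replicate left out, and 1290 when peaks were joined over gaps of up to 350 bp, a choice made after seeing the data. Of the 630, 266 had no base under an input peak. Genes with a domain fell to 107 when the start site had to lie in it. Acetyl coverage exceeded that of narrower regions by 21.9 points within the 4 NaBu lists. The exact sign-flip p was 0.13, the smallest that 4 libraries give. Region width differed between the sets here as well, and its part was not tested. On the log2 scale relative to genome coverage, differences were 0.11 for NaPr minus untreated, 0.66 for NaBu minus untreated, 1.03 for butyryl minus acetyl and 0.064 for H3K18ac minus H4K12ac; the first 3 reversed and the last lost its call (exact p = 0.861). Lists with more genome coverage have a larger divisor here.

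Input coverage turned to -0.0859 points against regions of 2 to 4 kb, and the GC difference to -0.479 points against peaks of 2 to 4 kb. The chromosome-end difference was 0.458 points at 3000 bp and -0.821 to 0.682 points with 1 list left out, positive without either H3K18pr list (0.648 and 0.682). The cause was not tested. With the replicate number as a block, the differences were -16.7, -37.8, 22.7 and -15.7 points for NaPr minus untreated, NaBu minus untreated, H3K18ac minus H4K12ac and butyryl minus acetyl, with exact p-values of 0.13, 0.13, 0.0312 and 0.13, and no call changed. Over domains, differences between replicates correlated between -0.0772 and 0.323 across paired groups, and the labels tie no numbers together, so they were read as names. For the single domains named, 35 alternatives moved NaPr coverage by more than 1 SD and 69 did not. With 2 libraries per group, differences smaller than the spread between replicates were not detectable.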
